A study of Arabidopsis thaliana with 39 samples.

Results

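The mature miRNAs of the miR159 and miR319 families were described here across every condition of an Arabidopsis thaliana small RNA sequencing survey of abiotic stress. They were taken from the read tables as the sequences named miR159 or miR319, with 1 entry per distinct sequence and without the second small RNAs of the miR319 hairpins (miR319a.2, miR319b.2 and miR319c.2). This gave 6 of the 353 distinct sequences, or 7 of the 431 names: miR159a, miR159b-3p, miR159b-5p and miR159c, and miR319a,b and miR319c, where miR319a and miR319b share 1 sequence and so 1 count. All plants were Col-0 wild type, and each of the 13 conditions had 3 libraries from separate biological replicates. Rosette leaves came from plants dried to a soil water content of 30% (D30, age 27 days, mild drought) or 20% (D20, age 30 days, severe drought), set against watered plants of the same ages (C30 and C20). Whole seedlings labelled as 15 days old were kept at 37 °C for 0.5 h (H0.5) or 6 h (H6) and set against unheated seedlings (H0). Other seedlings of that age were moved for 24 h to liquid medium. That medium lacked copper (Cu-) or sulfate (S-) or held added cadmium (Cd+, 10 µM), copper (Cu+, 10 µM) or NaCl (NaCl+, 250.0 mM), and all 5 treatments shared 1 control (C). The tables hold mature miRNAs only, so the labelled organ could not be checked against marker genes.

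Both families descend from a common ancestor and guide cleavage of messages for transcription factors. miR159 represses GAMYB-like genes such as MYB33 and MYB65, which act in gibberellin and abscisic acid responses, in anthers and in seeds, and which are kept silent in leaves and seedlings by it. miR319 represses the CIN-type TCP genes, among them TCP2, TCP3, TCP4, TCP10 and TCP24, which restrain cell division in growing leaves and promote jasmonate synthesis and leaf ageing.

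The 6 sequences are printed because the families differ in their seeds and the members within a family in the last bases. They run 5′ to 3′ in DNA letters as deposited, and the capitals mark the seed, bases 2 to 8.
miR159a: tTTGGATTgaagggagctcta
miR159b-3p: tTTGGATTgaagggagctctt
miR159c: tTTGGATTgaagggagctcct
miR159b-5p: gAGCTCCTtgaagttcaatgg
miR319a,b: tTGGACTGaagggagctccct
miR319c: tTGGACTGaagggagctcctt

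The first 3 share 1 seed, and miR319a,b and miR319c share another, which is offset by 1 base against that of miR159. Counted from the 5′ end, miR159b-3p differs from miR159a by A21T, miR159c from miR159a by T20C and A21T, and miR319c from miR319a,b by C20T. With the offset, miR159a and miR319a,b match at 17 of 20 aligned bases. The study trimmed unmatched reads at both ends before a second matching attempt, so a read that had lost its last base carried no letter that separates miR159a from miR159b-3p, and the tables do not show how such reads were assigned. miR159b-5p comes from the other arm of the miR159b hairpin and has a seed of its own.

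Each sequence was matched over its full length to TAIR10.1, since the tables give no positions. miR159a lies in the MIRNA gene MIR159a (AT1G73687) at chr1:27713234-27713254 on the minus strand. MIR159b (AT1G18075, plus strand) holds miR159b-5p at chr1:6220650-6220670 and miR159b-3p at chr1:6220813-6220833, and MIR159c (AT2G46255) holds miR159c at chr2:18994826-18994846 on the plus strand. The shared miR319 sequence occurs in MIR319a (AT4G23713) at chr4:12353109-12353129 on the plus strand and in MIR319b (AT5G41663) at chr5:16660469-16660489 on the minus strand, and MIR319c (AT2G40805) holds miR319c at chr2:17029870-17029890 on the plus strand.

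A known target site of each family is printed to show the pairing of both miRNAs with it. The sites are written 5′ to 3′ on the message strand, with capitals for bases that form Watson-Crick pairs with the miRNA named.
MYB33 site with miR159a: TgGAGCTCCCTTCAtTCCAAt
TCP4 site with miR319a,b: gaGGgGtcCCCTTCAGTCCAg
TCP4 site with miR159a: agGgGtcCCCTTCAgTCCAgt

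The MYB33 site (AT5G06100, chr5:1839579-1839599, within a coding exon) had 18 Watson-Crick pairs, 1 G:U pair and 2 mismatches with miR159a, and MYB65 (AT3G11440, chr3:3604151-3604171, coding exon) has the same 21 letters. The TCP4 site (AT3G15030, coding exon) had 15 Watson-Crick pairs, 4 G:U pairs and 2 mismatches with miR319a,b at chr3:5063300-5063320. With miR159a, 1 base further on, TCP4 had 13 Watson-Crick pairs, 5 G:U pairs and 3 mismatches. In turn miR319a,b, 1 base before the miR159a position, had 18 Watson-Crick pairs, 0 G:U pairs and 3 mismatches on MYB33, as many Watson-Crick pairs as miR159a there and more than miR319a,b on TCP4. These pairings describe the letters only, since no target message was measured in these tables.

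The libraries held 1018693 to 5036688 reads assigned to miRNAs, and levels below are CPM, the counts of a sequence per 1000000 such reads. A count of 3 reads, taken as the floor for detection, stood for 0.596 to 2.94 CPM. The NaCl+ libraries stood apart, with 13.3% ± 3.45 of their genome-mapped reads assigned to miRNAs, against 39.5% ± 2.29 in C (SD, n = 3 each). RNA integrity numbers were 8.0 to 9.3 in all libraries, and the labels name no sequencing batch or date. Since whole leaves and seedlings were sequenced, fewer cells that make a miRNA and less of it per cell cannot be told apart.

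Over all 39 libraries miR159a made up 79.1% of the reads of the 2 families, miR159b-3p 20.0%, miR319a,b 0.727%, miR319c 0.0858%, miR159c 0.0416% and miR159b-5p 0.0154%. Among the 353 sequences miR159a ranked 18 by total reads, miR159b-3p 32 and miR319a,b 124. miR159c, miR319c and miR159b-5p never exceeded 11 reads in a library, and the filter on low counts removed these 3 of the 6 members from every comparison. Only miR159a, miR159b-3p and miR319a,b were therefore tested.

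**Figure D1:**
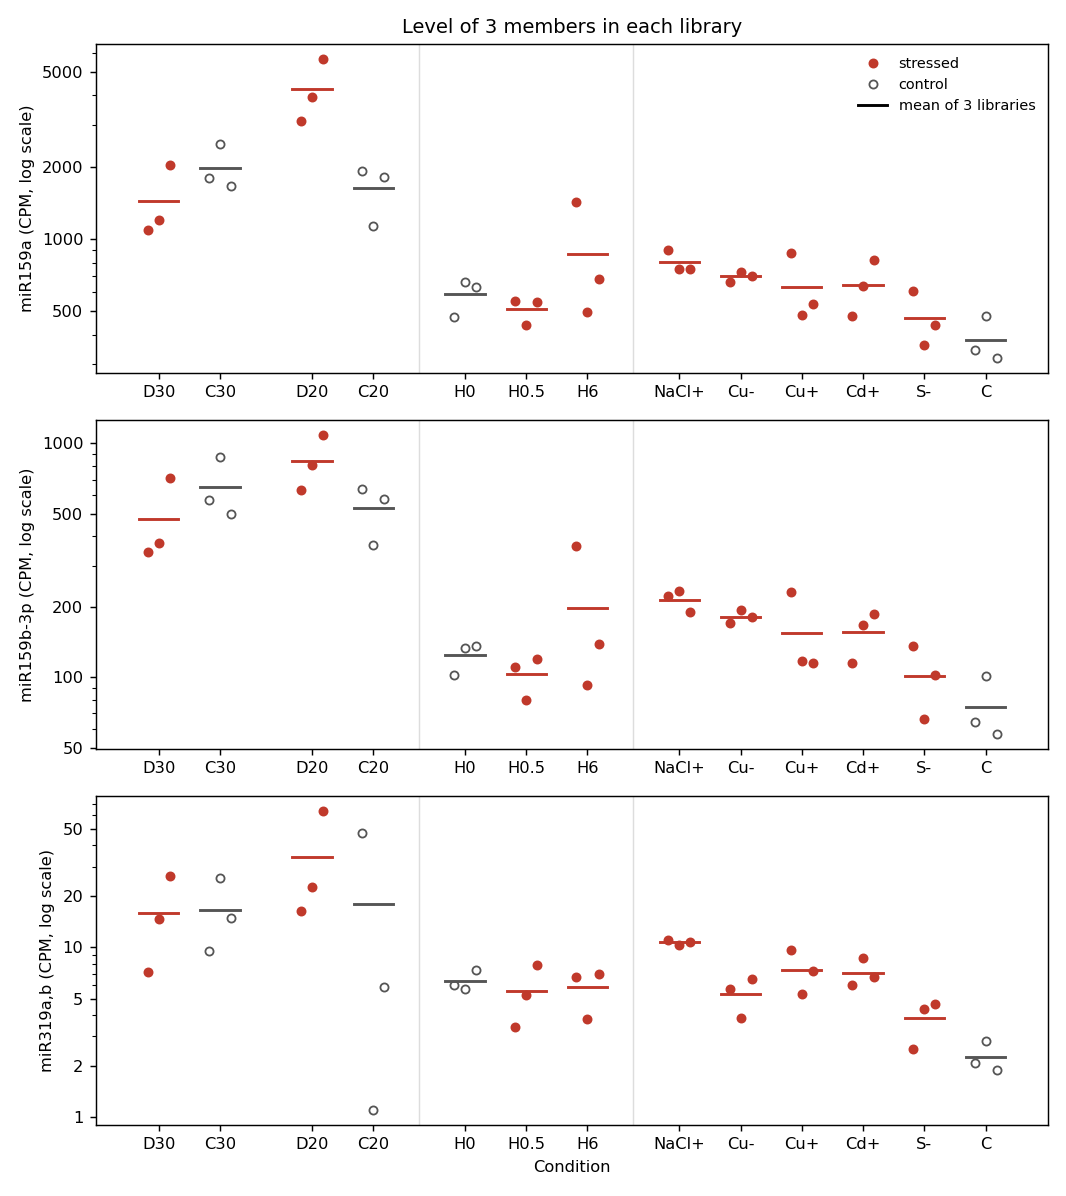
Level of miR159a, miR159b-3p and miR319a,b in each library, in CPM on log axes, with filled points for stressed and open points for control libraries and bars for the mean of 3 libraries. Leaves (D30, C30, D20 and C20) lie above nearly all seedlings for both miR159 sequences, and C lies lowest of the 13 conditions in all 3 panels by its mean.

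The level of miR159a was highest in severely dried leaves, at 4254 ± 1307 CPM (SD, n = 3 as for all values of this kind), and no D20 library overlapped with the next condition, C30, at 1989.7 ± 449 CPM. C20, at 1633 ± 434 CPM, and D30, at 1447 ± 520.1 CPM, followed, and the libraries of C30, C20 and D30 overlapped. Heated seedlings of H6 came next with 869.7 ± 493 CPM, drawn up by 1 library. Then followed NaCl+ (803 ± 86.0 CPM), Cu- (699.6 ± 33.2 CPM), Cd+ (645 ± 171 CPM), Cu+ (634 ± 215 CPM), H0 (589 ± 102 CPM), H0.5 (512 ± 63.8 CPM), S- (471 ± 126 CPM) and C (381 ± 86.0 CPM). Of the 12 pairs of neighbours in this order, 2 did not overlap, D20 with C30 and NaCl+ with Cu-, and of all 78 pairs of conditions 48 did not.

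The order for miR159b-3p differed little, with D20 at 844 ± 228 CPM and C at 74.4 ± 23.5 CPM at its ends. Its 4 leaf conditions had means of 477 to 844 CPM and its 9 seedling conditions of 74.4 to 215 CPM. The only neighbours whose libraries did not overlap were D30 (477 ± 206 CPM) and NaCl+ (215 ± 22.8 CPM), the step between leaves and seedlings by their means. Single libraries did cross that step, since seedling H6 replicate 1 had 365 CPM and leaf D30 replicate 1 had 343 CPM. miR159b-3p did not set D20 apart from the other leaves in the way miR159a did, since its D20 libraries overlapped with those of C30.

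miR319a,b was far scarcer. It averaged 34.3 ± 25.8 CPM in D20, 18.1 ± 25.4 CPM in C20, 16.7 ± 8.19 CPM in C30 and 16.0 ± 9.62 CPM in D30, and the leaf libraries spread widely, by up to 42.9-fold between the highest and the lowest library of C20. Among seedlings NaCl+ was highest, at 10.7 ± 0.320 CPM, and C lowest, at 2.26 ± 0.486 CPM, with the other 7 seedling conditions at 3.82 to 7.41 CPM. Of the 12 neighbouring pairs 1 did not overlap, NaCl+ with Cu+.

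Watered leaves and control seedlings differed strongly in miR159. The mean of C30 and C20 was set against the mean of H0 and C in 1 fit, and edgeR's quasi-likelihood test gave miR159a a log2 fold change of 1.29 ± 0.16 (SE, edgeR adjusted p = 2.49e-05) and miR159b-3p of 1.97 ± 0.19 (SE, edgeR adjusted p = 2.81e-06). Thus 2 of the 3 tested members were called higher in leaves, where 21.1% of the 185 sequences tested were higher and 51.9% were called in either direction. miR319a,b had 1.51 ± 0.62 (SE, edgeR adjusted p = 0.0588), which did not pass by edgeR's test, while DESeq2 gave 1.58 and an adjusted p of 0.0184. edgeR called it with total miRNA reads (2.18, adjusted p = 0.0107), with genome-mapped reads (1.74, adjusted p = 0.0256) and in the joint fit (1.51, adjusted p = 0.00598), and leaving out 1 library gave 0.41 (without C20 replicate 1) to 1.98 (without C20 replicate 2), with edgeR adjusted p of 0.407 and 0.00327. Organ, age and culture changed together in this contrast and cannot be told apart. Between the watered leaves of C20 and C30 edgeR called 0 of the 3 members and 0% of all sequences (0 members at an unadjusted p under 0.05 and 0 by DESeq2), with log2 fold changes of -0.23 (SE 0.21) for miR159a, -0.24 (SE 0.24) for miR159b-3p and 0.08 (SE 0.99) for miR319a,b.

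Under mild drought no member was called. miR159a had 1094, 1203 and 2045 CPM in D30 leaves, against 1801, 2502 and 1667 CPM in C30 leaves, and miR159b-3p had 343, 373 and 714 CPM in D30, against 572, 876 and 498 CPM in C30. The third D30 library lay well above the rest of its group for both sequences, and the groups overlapped. edgeR's test gave log2 fold changes of -0.58 ± 0.23 (SE, edgeR adjusted p = 0.247) for miR159a, -0.57 ± 0.26 (SE, edgeR adjusted p = 0.314) for miR159b-3p and -0.17 ± 0.42 (SE, edgeR adjusted p = 0.932) for miR319a,b, so that 0 of 3 members passed where 0.602% of 166 sequences did. At an unadjusted p under 0.05 the count was 1, miR159a, which was lower, and DESeq2 called 0.

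Under severe drought miR159a rose while its near twin did not pass the test. miR159a had 3121, 3956 and 5684 CPM in D20 leaves, against 1939, 1137 and 1825 CPM in C20 leaves, so that every D20 library lay above every C20 library, as in 25.7% of all sequences. Its log2 fold change was 1.12 ± 0.25 (SE, edgeR adjusted p = 0.0145), and it was the only one of 3 tested members called, where 8.98% of 167 sequences were called higher and 19.8% in either direction. The call was lost without D20 replicate 2 (log2 fold change 1.31, adjusted p = 0.0686) and without D20 replicate 3 (0.95, adjusted p = 0.0656). Those fits called 5 of 170 and 5 of 168 sequences higher. miR159b-3p had 635, 811 and 1086 CPM in D20 leaves, against 637, 368 and 578 CPM in C20 leaves, where the lowest D20 and the highest C20 library met, and edgeR gave 0.42 ± 0.24 (SE, edgeR adjusted p = 0.295). Summed to 1 entry, miR159a, miR159b-3p and miR159c had a log2 fold change of 1.10 ± 0.27 (SE, edgeR adjusted p = 0.0252).

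The comparison of miR319a,b in severe drought turned on 1 control library. It had 16.4, 22.7 and 63.9 CPM in D20 leaves, against 47.3, 1.10 and 5.87 CPM in C20 leaves, that is 129 reads in C20 replicate 1 and 4 reads in C20 replicate 2. The log2 fold change was 0.76 ± 1.02 (SE, edgeR adjusted p = 0.646). Without C20 replicate 1 it was 3.10 with an adjusted p of 0.0232. The count of called members then became 2, where 24 of 169 sequences were called higher. That library was not unusual in miR159a or miR159b-3p, where it was the highest of the 3 by a small margin.

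The change of miR159a under severe drought differed from that under mild drought. In 1 fit of the 12 leaf libraries, the D20 change minus the D30 change of miR159a was 1.80 ± 0.43 (SE, edgeR adjusted p = 0.0437) on the log2 scale by edgeR's test, where 2.26% of 177 sequences were called higher and 3.39% in either direction. miR159a was higher than in C20 in 3 of 3 D20 libraries, and 2 of 3 D30 libraries lay below the whole of C30. The call was lost in 7 of 12 fits that left out 1 library, with values of 1.43 to 2.11 and adjusted p of 0.00541 to 0.0799. The same difference was 1.08 ± 0.47 (SE, edgeR adjusted p = 0.210) for miR159b-3p and 1.06 ± 1.25 (SE, edgeR adjusted p = 0.662) for miR319a,b, neither of which passed. For miR319a,b that value was 3.28 without C20 replicate 1 (edgeR adjusted p = 0.0897) and 0.16 without D20 replicate 3.

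**Figure D2:**
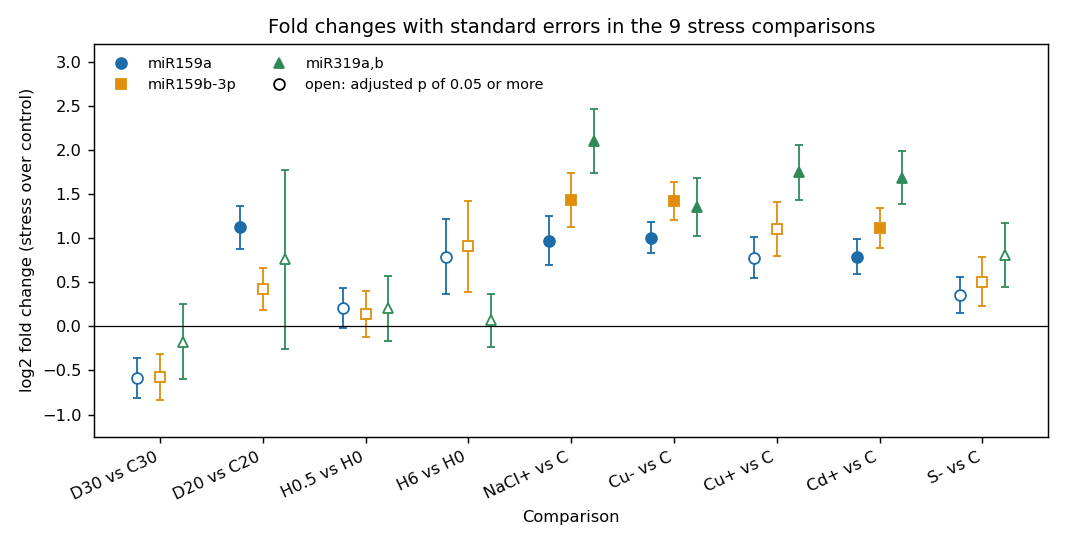
log2 fold change of miR159a, miR159b-3p and miR319a,b in the 9 stress comparisons, with bars for 1 standard error derived from edgeR's test and filled symbols where the adjusted p was under 0.05. The 3 members lie above 0 in all 5 comparisons with C, and in the leaf and heat comparisons only miR159a in D20 is filled.

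The composition of miR159 reads in severe drought lay outside that of the watered leaves. miR159b-3p made up 16.9, 17.01 and 16.0% of the reads of miR159a and miR159b-3p together in D20, against 24.7, 24.4 and 24.0% in C20. The groups lay far apart, and the exact 95% binomial intervals of single libraries, which cover counting error only, spanned 15.6 to 17.7% in D20 and 23.1 to 25.7% in C20. The means were 16.7% ± 0.530 in D20 and 24.4% ± 0.336 in C20 (SD, n = 3 each), a difference of -7.75 percentage points. A two-sided exact permutation test of 3 against 3 libraries cannot go below p = 0.1, which was the value found, and after adjustment over the 9 stress comparisons it was 0.18 (higher in 0 of 3 D20 libraries). In mild drought the share was 24.5% ± 1.23 in D30 and 24.3% ± 1.48 in C30 (exact permutation p = 1). How trimmed reads were assigned between both sequences could enter these shares and was not tested.

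**Figure D3:**
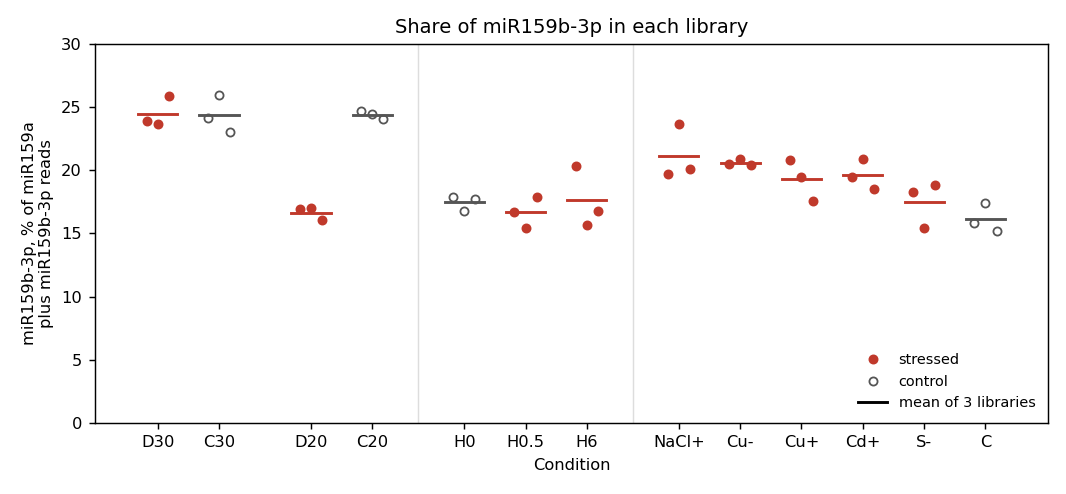
Share of miR159b-3p among miR159a and miR159b-3p reads in each library, in percent, with filled points for stressed and open points for control libraries and bars for the mean of 3. D20 lies at 16.0 to 17.01% while the other 9 leaf libraries lie at 23.0 to 25.9%.

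In 4 of the 5 treatments set against C the share lay above C with no overlap. It was 21.2% ± 2.18 in NaCl+, 20.6% ± 0.263 in Cu-, 19.3% ± 1.66 in Cu+ and 19.6% ± 1.17 in Cd+, against 16.1% ± 1.15 in C (SD, n = 3 each). Each of these 4 reached the smallest exact permutation p of 0.1 (0.18 adjusted), and they share the libraries of C. The exact 95% intervals of single libraries reached 19.05% in C and began at 19.15% in Cu-, 17.6% in NaCl+, 17.4% in Cd+ and 16.1% in Cu+, so those of NaCl+, Cd+ and Cu+ overlapped with C. In S- the share was 17.5% ± 1.85 and overlapped with C (exact permutation p = 0.3). Heated seedlings had 16.7% ± 1.24 in H0.5 and 17.6% ± 2.44 in H6, against 17.5% ± 0.574 in H0, and both overlapped with H0.

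No member passed the test under heat. miR159a had 551, 439 and 548 CPM in H0.5, against 472, 660.2 and 634 CPM in H0, and its log2 fold change was 0.20 ± 0.23 (SE, edgeR adjusted p = 0.851). miR159b-3p had 0.14 ± 0.26 (SE, edgeR adjusted p = 0.981) and miR319a,b 0.20 ± 0.37 (SE, edgeR adjusted p = 0.981), so 0 of 3 were called where 1.23% of all tested sequences were. The small positive values have no stable sign, since scaling to total miRNA reads or to genome-mapped reads made all 3 negative and moved the median of all sequences by -0.40 and -0.36. At an unadjusted p under 0.05 the count was 0, and DESeq2 called 0.

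After 6 h 1 library drew up the mean levels of miR159. miR159a had 1428, 497 and 684 CPM in H6 seedlings and miR159b-3p had 365, 92.5 and 138 CPM, against 472, 660.2 and 634 CPM for miR159a and 103, 133 and 136 CPM for miR159b-3p in H0. H6 replicate 1 was high in both, while replicates 2 and 3 lay near the H0 libraries. The log2 fold changes were 0.79 ± 0.43 (SE, edgeR adjusted p = 0.519) for miR159a, 0.91 ± 0.52 (SE, edgeR adjusted p = 0.519) for miR159b-3p and 0.067 ± 0.30 (SE, edgeR adjusted p = 0.960) for miR319a,b by edgeR's test, and without H6 replicate 1 those of the miR159 sequences were 0.11 and -0.0054. No member was called (0 of 3, where 6.79% of 162 sequences were), 0 had an unadjusted p under 0.05 and DESeq2 called 0. miR319a,b lacked the high value, with 6.69, 3.77 and 6.97 CPM in H6, against 6.00, 5.69 and 7.39 CPM in H0. Between H6 and H0.5 no member was called either, with log2 fold changes of 0.73, 0.90 and 0.042 for miR159a, miR159b-3p and miR319a,b, 0 at an unadjusted p under 0.05 and 0 by DESeq2, where edgeR called 3.11% of all sequences.

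All 3 tested members were higher in NaCl+ as a share of miRNA reads, though not of genome-mapped reads. miR159a had 902, 753 and 753 CPM in NaCl+ seedlings, against 345, 479 and 319.3 CPM in C seedlings, with a log2 fold change of 0.97 ± 0.28 (SE, edgeR adjusted p = 0.0190). miR159b-3p had 222, 234 and 189 CPM in NaCl+, against 64.7, 101 and 57.3 CPM in C, and changed by 1.43 ± 0.30 (SE, edgeR adjusted p = 0.00310). miR319a,b had 11.0, 10.4 and 10.8 CPM in NaCl+, against 2.09, 2.81 and 1.89 CPM in C, and changed by 2.10 ± 0.36 (SE, edgeR adjusted p = 0.000822), the largest fold among the 3. No NaCl+ library overlapped with C for any of them. Of all sequences tested 20.5% were called higher and 33.3% in either direction, and 32.1% had NaCl+ libraries that all lay above C. The miR319 values rest on 44 reads in the 3 NaCl+ libraries and 28 in the 3 C libraries.

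The salt result holds per miRNA read and not per genome-mapped read. With the genome-mapped reads as library size, edgeR gave log2 fold changes of -0.48 for miR159a (adjusted p = 0.181), 0.0078 for miR159b-3p (adjusted p = 0.981) and 0.68 for miR319a,b (adjusted p = 0.141), and 0 of 3 were called. That scaling moved the median of all sequences by -1.44, and the calls became 6 higher and 111 lower. A change of library size moves all sequences nearly alike. The place of the 3 members above the median sequence was therefore carried over and adds no support. The smaller miRNA share of the NaCl+ libraries (13.3%, against 39.5% in C) thus moved with the result. Leaving out C replicate 3 ended the call of miR159a alone (0.78, edgeR adjusted p = 0.0664).

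Without copper all 3 were called higher as well. miR159a had 665, 731 and 704 CPM in Cu- seedlings, against 345, 479 and 319.3 CPM in C, and changed by 1.00 ± 0.18 (SE, edgeR adjusted p = 0.0145). miR159b-3p had 171, 193 and 181 CPM in Cu-, against 64.7, 101 and 57.3 CPM in C, and changed by 1.42 ± 0.22 (SE, edgeR adjusted p = 0.0136), which ranked 1 by p among the 162 sequences tested, with miR159a at 3. The 3 Cu- libraries were close to each other and all above C. miR319a,b had 5.69, 3.83 and 6.51 CPM in Cu- and changed by 1.36 ± 0.33 (SE, edgeR adjusted p = 0.0312). The 3 of 3 members called higher by edgeR's test stand beside 8.02% of all sequences, and 15.4% had Cu- libraries that all lay above C. The call of miR319a,b was lost in 5 of 6 fits that left out 1 library (all but that without Cu- replicate 2, edgeR adjusted p of 0.108 to 0.185), with total miRNA reads (0.0573), in the joint fit (0.280) and for the summed reads of miR319a,b and miR319c (log2 fold change 0.92, adjusted p = 0.0885), and DESeq2 called 2 of 3 members. The count fell to 0 without Cu- replicate 3 and to 1 without Cu- replicate 1 or without C replicate 1. Calls over all sequences fell too. Without Cu- replicate 3, 0 of 170 were called. Without Cu- replicate 1, 2 of 168 were called higher, and without C replicate 1, 1 of 169.

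With 10 µM copper the levels were alike but more spread. miR159a had 880.2, 484 and 539 CPM and miR159b-3p 232, 117 and 115 CPM in Cu+, and replicate 1 was the highest in both. Their log2 fold changes against C, 0.78 ± 0.24 (SE, edgeR adjusted p = 0.187) and 1.10 ± 0.31 (SE, edgeR adjusted p = 0.179), did not pass edgeR's test, although all Cu+ libraries lay above all C libraries, as they did for 6.83% of all sequences. miR319a,b had 9.69, 5.32 and 7.22 CPM in Cu+, against 2.09, 2.81 and 1.89 CPM in C, and passed narrowly with 1.75 ± 0.31 (SE, edgeR adjusted p = 0.0489), as 1 of 3 members where 1.24% of 161 sequences were called. With the replicate number as a block, miR319a,b kept a log2 fold change of 1.73 but not its call (edgeR adjusted p = 0.0687). With that block 0 of all 161 sequences were called. Same-numbered libraries of this pair correlated weakly, but the labels name no pairing. The call was also lost in 5 of 6 fits that left out 1 library, all but that without Cu+ replicate 2. In those 5 fits 0 to 2 of all sequences were called. The summed reads of miR319a,b and miR319c did not pass in Cu+ (1.33 ± 0.28, SE, edgeR adjusted p = 0.103).

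Cadmium gave 3 calls of 3. miR159a had 479, 637 and 821 CPM in Cd+ seedlings, with the lowest Cd+ library just under the highest of C, and changed by 0.79 ± 0.20 (SE, edgeR adjusted p = 0.0335). miR159b-3p had 116, 168 and 187 CPM and changed by 1.12 ± 0.22 (SE, edgeR adjusted p = 0.0145). miR319a,b had 5.97, 8.65 and 6.72 CPM and changed by 1.68 ± 0.30 (SE, edgeR adjusted p = 0.0145), and for both of these no Cd+ library overlapped with C, as in the same direction for 10% of all sequences. Among all 160 sequences 6.25% were called higher and 11.2% in either direction. The count was 0 without C replicate 1 or Cd+ replicate 2 and 1 without Cd+ replicate 3. Of all sequences, 1 of 168 was called higher without C replicate 1 and 1 of 168 without Cd+ replicate 2. Without Cd+ replicate 3, 3 of 169 were called higher. miR159a also lost its call without C replicate 3 (edgeR adjusted p = 0.0591), with total miRNA reads (0.0596), with genome-mapped reads (0.0647) and with the replicate block (0.0698).

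Sulfur deficiency gave positive values without a call. miR159a had 609, 363 and 440.1 CPM in S- and a log2 fold change of 0.36 ± 0.20 (SE, edgeR adjusted p = 0.821), miR159b-3p had 136, 66.1 and 102 CPM and a change of 0.51 ± 0.28 (SE, edgeR adjusted p = 0.821), and miR319a,b had 2.51, 4.31 and 4.63 CPM and a change of 0.81 ± 0.36 (SE, edgeR adjusted p = 0.705). The S- libraries overlapped with C in all 3, edgeR called 0 of 161 sequences (0%), no member had an unadjusted p under 0.05, and DESeq2 called 0. Set against S-, the mean of Cu-, Cu+ and Cd+ was higher by 0.56 ± 0.22 (SE, edgeR adjusted p = 0.212), 0.77 ± 0.26 (SE, edgeR adjusted p = 0.176) and 0.84 ± 0.29 (SE, edgeR adjusted p = 0.176) for miR159a, miR159b-3p and miR319a,b on the log2 scale, none of which passed by edgeR's test (0 of 3 and 0% of all sequences called, 3 of 3 at an unadjusted p under 0.05, 0 by DESeq2).

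Neither Cu- nor Cd+ differed from Cu+ past the threshold in these miRNAs. Cu- against Cu+ gave log2 fold changes of 0.081 (SE 0.23) for miR159a, 0.18 (SE 0.27) for miR159b-3p and -0.53 (SE 0.31) for miR319a,b. Cd+ against Cu+, at the same 10 µM, gave 0.052 (SE 0.26), 0.055 (SE 0.28) and -0.028 (SE 0.28). In both, edgeR called 0 of 3 members (of all sequences 0% for Cu- against Cu+ and 0.617% for Cd+ against Cu+), 0 had an unadjusted p under 0.05 and DESeq2 called 0.

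The 5 comparisons with C share its 3 libraries, and C was the lowest of the 13 conditions in all 3 tested members. The other unstressed seedlings, H0, had means within the range of the 5 treatments. miR319a,b had 6.00, 5.69 and 7.39 CPM in H0, against 2.09, 2.81 and 1.89 CPM in C, and edgeR's test gave 1.71 ± 0.26 (SE, edgeR adjusted p = 0.0139), a difference of the size seen with copper or cadmium. miR159a differed by 0.89 ± 0.26 (SE, edgeR adjusted p = 0.0591) and miR159b-3p by 1.00 ± 0.28 (SE, edgeR adjusted p = 0.0547), just short of the threshold. So 1 of 3 members was called higher in H0, where 9.82% of all tested sequences were higher and 16.6% were called in either direction. DESeq2 and scaling to genome-mapped reads called 3 of 3, and edgeR called 0 once any 1 library of C was left out. H0 and C belong to separate experiments, and what in their handling differed was not tested.

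The 3 rare members did not pass the filter and are described by reads. miR159b-5p, from the arm opposite miR159b-3p, had 25 reads in the 12 leaf libraries and 5 in the 27 seedling libraries. In watered leaves it had 0, 2 and 5 reads in C30 and 5, 3 and 2 in C20, and in control seedlings none in the 3 libraries of H0 and the 3 of C. Pooled, this made 0.845 CPM in C30 and C20, at least 7.47-fold higher than the floor of 0.113 CPM that 3 reads over all 6 control seedling libraries allow. Without the filter edgeR called it higher in watered leaves (fitted log2 fold change 4.43, adjusted p = 0.0114), as did DESeq2 (3.75, adjusted p = 0.0293). Of all 306 sequences, edgeR without the filter called 35 higher and 62 lower, and DESeq2 46 higher and 56 lower.

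miR159c, which differs from the other miR159 guides in its last bases, had 81 reads in 28 of the 39 libraries and at most 6 in 1. It had 0 reads in all 3 NaCl+ libraries, which allows up to 0.729 CPM there, and 1, 0 and 2 reads in C, so a difference was not detectable at this depth. miR319c had 167 reads in 37 libraries, with 0.564 to 2.02 CPM as the means of the 13 conditions. Its highest library was C20 replicate 1 with 11 reads, the same library that was highest in miR319a,b among the controls. The 4 conditions of leaves had 66 reads of miR319c in all and the 9 of seedlings 101, or 1.72 and 0.918 CPM of the pooled reads.

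**Figure D4:**
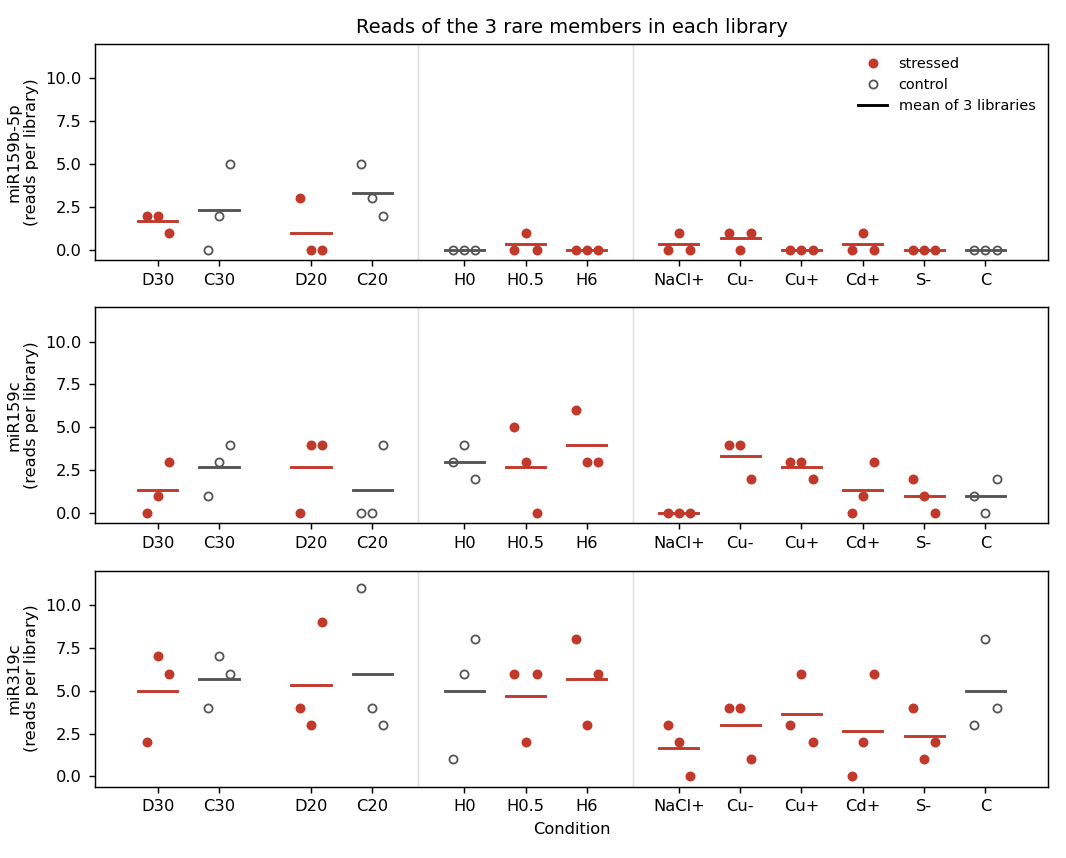
Reads of miR159b-5p, miR159c and miR319c in each library, on a linear axis, with filled points for stressed and open points for control libraries and bars for the mean of 3. No library exceeds 11 reads, and miR159b-5p has 0 reads in 22 of the 27 seedling libraries.

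Across the 13 condition means the abundant members resembled each other more than any of 121 other sequences with a mean of at least 10 CPM. On log2(CPM + 1), Pearson's r was 0.97 between miR159a and miR159b-3p, 0.95 between miR159a and miR319a,b, and 0.95 between miR159b-3p and miR319a,b. The closest sequences outside the families were miR162a-3p,b-3p (r = 0.90), miR5653 (0.89) and miR398a-5p (0.89) for miR159a, miR5653 (0.94), miR162a-3p,b-3p (0.93) and miR850 (0.93) for miR159b-3p, and miR398a-5p (0.91), miR5653 (0.89) and miR162a-3p,b-3p (0.88) for miR319a,b. The points share libraries and the step between leaves and seedlings. How trimmed reads were assigned between both miR159 sequences could enter their r and was not tested. Within the 9 seedling conditions r was 0.98 between both miR159 sequences, 0.79 for miR159a and 0.81 for miR159b-3p with miR319a,b, and 0.30 between miR159a and miR162a-3p,b-3p. Other outside sequences came close to the values with miR319a,b there, with r = 0.76 for miR5653 and 0.75 for miR850 with miR159b-3p and 0.64 for miR5653 with miR159a. Only the outside sequences picked over all 13 conditions were compared within seedlings, so a closer one there was not looked for.

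The second small RNAs of the miR319 hairpins did not follow miR319a,b. Their r with it over the 13 conditions was 0.38 for miR319a.2, 0.11 for miR319b.2 and -0.59 for miR319c.2, and miR319b.2 averaged 429 CPM over the 39 libraries, where miR319a,b averaged 10.7 CPM. The value of miR319c.2 is not one within a hairpin, since MIR319c holds miR319c and not the miR319a,b sequence. In D20 against C20 all 3 were called lower by edgeR's test, where 10.8% of all sequences were lower, with a median log2 fold change of -1.36 (-0.11 over all sequences). In NaCl+ against C 2 of 3 were lower, where 12.8% of all were, with a median of -1.15 (0.13 over all). In Cu- against C miR319b.2 was the 1 of 3 called higher, where 8.02% of all sequences were, and in the other 6 comparisons 0 were called.

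Some miRNA families lie downstream of the same factors: TCP4 and its relatives activate MIR164 and MIR396 genes, and MYB33 has been tied to MIR156 genes. Of 18 sequences of miR164, miR396 and miR156, 14 or 15 were tested in each comparison. edgeR's test called 7 higher and 1 lower in NaCl+ against C, where 20.5% of all sequences were higher and 12.8% lower, and the median log2 fold change of the 15 was 0.99 (0.13 over all sequences). With genome-mapped reads as library size, a setting added for this list after its values were seen, 1 was higher and 7 lower, with a median of -0.46 (-1.33 over all). With the main scaling the largest of those higher were miR396a-5p, a regulator of growth-regulating factors, with 3.48 (SE 0.41, edgeR adjusted p = 3.84e-05), and miR396a-3p with 1.78 (SE 0.30, edgeR adjusted p = 0.000753). The 1 lower was miR164c-5p (-0.77, SE 0.25, edgeR adjusted p = 0.0348). In Cd+ against C 4 were higher and 0 lower, where 6.25% of all sequences were higher, led by miR156f-3p (1.52, SE 0.30, edgeR adjusted p = 0.0145) and miR396a-3p (0.98, SE 0.24, edgeR adjusted p = 0.0309), with a median of 0.067 (-0.015 over all). The names of these 4 all end in -3p. In Cu- 1 was higher, miR396a-3p (1.11, SE 0.21, edgeR adjusted p = 0.0157), where 8.02% of all sequences were higher. In D20 1 was lower, miR396b-3p (-1.20, SE 0.26, edgeR adjusted p = 0.0144), where 10.8% of all sequences were lower. In D30, Cu+ and S- 0 were called, where 0.602%, 1.24% and 0% of all sequences were called in either direction. Under heat miR159 and miR319 had no call. There miR156h (2.31) and miR156f-3p (2.70) were higher in H0.5, 2 of 15 where 1.23% of all sequences were called. In H6 miR156h alone was higher (2.28), 1 of 15, while 6.79% of all sequences were called in either direction. The share called higher was smaller in other settings. RLE scaling called 2 of 162 higher and 9 lower, and total miRNA reads 1 higher and 9 lower. The other regulators of MYB genes, miR828 and miR858, have 3 sequences in the tables, of which 2 passed the filter in the drought comparisons and none elsewhere. Of these 0 were called, where 0.602% of all sequences were called in D30 and 19.8% in D20. Their median log2 fold change was 0.081 in D30 (0.0029 over all sequences) and 1.15 in D20 (-0.11 over all).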

How the data were processed

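Small RNA libraries of 39 samples in 13 groups of 3 were used, grouped by their labels. The deposited counts were made by the authors, who matched adaptor-trimmed reads to mature miRNAs of miRBase and to added sequences, trimmed unmatched reads at both ends and matched them again. Genome mapping used Bowtie 1.0.0 on TAIR10, per the submitters' processing notes. The authors also deposited CPM values (counts over the miRNA total of the library) and their means, a fold ratio of the means and an F-test p-value on CPM, none of which was used here. The summary sheet deposited by the authors gave genome-mapped reads, their percent of all reads, and the RNA integrity score of each sample.

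The 15 control columns repeated over the stress tables were identical and were used once. CPM was recomputed from the counts. For each comparison, the libraries of the groups compared were fitted with edgeR 4.0.16 (filterByExpr at a minimum count of 10, TMM scaling, quasi-likelihood test, Benjamini-Hochberg adjustment over all sequences kept, call at an adjusted p under 0.05) in R 4.3.3. The difference of effects and the means of groups were contrasts in 1 fit of their groups. edgeR's test returns no standard error, so each SE was derived as the absolute log2 fold change over the square root of the F statistic. The script was tested on simulated data. DESeq2 1.42.0 was an alternative, besides RLE scaling, total miRNA reads or genome-mapped reads as library size, no filter, a joint fit of all libraries, a replicate block, family sums and leaving out each library. Shares were compared by exact two-sided permutation tests, with exact (Clopper-Pearson) 95% intervals per library. Depth was 1018693 to 5036688 miRNA reads per library, and intervals and floors of 3 counts cover counting error only, since reads had no molecular identifiers.

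All 6 members were named, with the 3 most similar other sequences of each abundant member (Pearson's r on log2(CPM + 1)). Of each list, at most the 2 called sequences with the largest change in each direction of a comparison were named. Members and lists were chosen with earlier results of these data known. Same-numbered libraries were checked for pairing by the correlation of their deviations from the group means, which exceeded 0.1 in all 3 pairs for H6 with H0 (0.35, 0.72 and 0.56) and Cu+ with C (0.24, 0.33 and 0.19). The labels call the samples biological replicates and name no pairing, and such correlations cannot show that libraries were paired.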

Additional observations from a re-analysis of the deposited data

Results flagged for a closer look

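The change of miR159a in severe drought differed from its change in mild drought by 1.80 on the log2 scale, D20 against C20 minus D30 against C30 (SE 0.43, edgeR adjusted p = 0.0437). This was a test of the difference itself, and the result was flagged because that test passed, so its p adds no separate support. miR159a lay above its watered control in 3 of 3 D20 libraries and below the whole of C30 in 2 of 3 D30 libraries. With 1 library left out, the edgeR adjusted p ran from 0.00541 to 0.0799, so the call was not kept in every fit. The same difference did not pass for miR159b-3p (1.08, SE 0.47, edgeR adjusted p = 0.210). The D20 and D30 plants differed in age and in soil water content, each with a control of its own age. Why the changes differed was not tested.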

How the results depend on the processing

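With genome-mapped reads as library size, 0 of 3 members were called in NaCl+ against C (main count 3), and miR159a became -0.48. In Cu+ against C (main count 1) total miRNA reads, the replicate block and the joint fit gave 0 and DESeq2 gave 2. Those edgeR settings called 0 of all sequences, and DESeq2 called 4 of 287 higher and 0 lower. The joint fit gave 0 in Cd+ against C (main count 3), where it called 0 of all 210 sequences. In H0 against C (main count 1) RLE scaling, genome-mapped reads and DESeq2 gave 3, and no filter and the joint fit gave 2. In leaves against seedlings (main count 2) DESeq2 gave 4, adding miR319a,b and miR159b-5p, where it called 46 of 306 sequences higher and 56 lower. With the replicate number as a block, Cu- against C gave 0 called members (main count 3), where 0 of all 162 sequences were called. Same-numbered libraries of Cu- and C had correlations of -0.32, -0.46 and 0.047. In H6 against H0, where these correlations were 0.35, 0.72 and 0.56, the block changed no call.

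Signs turned only where no call was made, apart from miR159a in NaCl+. In H0.5 against H0, miR159a became -0.20 with total reads, -0.17 with genome-mapped reads and -0.084 in the joint fit, miR159b-3p became -0.26, -0.23 and -0.15 there and -0.028 with RLE scaling and -0.033 without a filter, and miR319a,b became -0.20, -0.15 and -0.097. In H6 against H0, miR319a,b became -0.13 with total reads, -0.17 with genome-mapped reads, -0.036 without a filter and -0.024 in the joint fit. In H6 against H0.5 it became -0.026 with genome-mapped reads, -0.089 without a filter and -0.011 by DESeq2. In Cd+ against Cu+, genome-mapped reads gave -0.065 for miR159a and -0.069 for miR159b-3p, and the joint fit 0.036 for miR319a,b. In C20 against C30, miR319a,b became -0.26 with genome-mapped reads and -0.72 with the replicate block. The cause was not tested.

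When 1 library was left out, the count of called members was 0 to 2 in D20, 2 to 3 in NaCl+, 0 to 3 in Cu-, 0 to 1 in Cu+, 0 to 3 in Cd+, 0 to 1 for D20 against D30 effects, 0 to 3 in H0 against C and 2 to 3 in leaves against seedlings, and 0 elsewhere. In some of these fits calls over all sequences fell too. In Cu- they fell to 0 of 170 without Cu- replicate 3. In Cd+ they fell to 1 higher and 1 lower of 168 without C replicate 1. Where a sign turned, log2 fold changes spanned -0.66 to 0.27 for miR319a,b in D30, -0.13 to 0.21 for miR159b-3p and -0.26 to 0.45 for miR319a,b in H0.5, -0.0054 to 1.04 for miR159b-3p and -0.23 to 0.13 for miR319a,b in H6, -0.17 to 0.35 for miR319a,b in H6 against H0.5, -2.15 to 0.63 for miR319a,b in C20 against C30, -0.047 to 0.40 for miR159a in Cu- against Cu+, and -0.14 to 0.29, -0.10 to 0.40 and -0.26 to 0.16 for miR159a, miR159b-3p and miR319a,b in Cd+ against Cu+. The share of miR159b-3p differed by -7.93 to -7.45 percentage points in D20. At a few reads per library, miR159b-5p, miR159c and miR319c could not be compared between stresses.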
